A study of Mus musculus with 6 samples.

Results

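Described here are 8 genes of cholesterol synthesis and its control, taken by name from the deposited table of 23398 genes: the transcription factor gene Srebf2, its brake Insig1, and the enzyme genes Hmgcs1, Idi1, Fdft1, Sqle, Lss and Cyp51. All 8 were found once in the table and all 8 passed the filter on low values. The study grew dendritic cells from mouse bone marrow in DMEM with serum and exposed them for 12 hours to vehicle (3 libraries) or to Ca(OH)2 nanoparticles (3 libraries), and sequenced total RNA. Strain, age, dose and the growth factors used to obtain the cells are not given in the sources used here, and nothing says whether the libraries of a group came from separate animals or cultures. The p-values therefore measure the spread between these libraries, which may be technical.

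Cells make cholesterol from acetyl-CoA through mevalonate, isoprenoid units, squalene and lanosterol. The genes of this route share a control: SREBP2, the product of Srebf2, is held in the endoplasmic reticulum by Scap and the Insig proteins while sterols are plentiful, and is released, cut by proteases in the Golgi and sent to the nucleus when sterols run low, where it turns on the route together with Srebf2 and Insig1 themselves. In macrophages and dendritic cells the route is known to respond to microbial and interferon signals, among other ways through Ch25h, the enzyme that makes 25-hydroxycholesterol, an oxysterol that keeps SREBP2 in the endoplasmic reticulum.

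RefSeq promoter sequences (build GRCm38.p6, the 250 bases before the annotated start) were available for 6 of the 8 genes. The 4 shown were chosen to cover the regulator, the brake, an enzyme with an exact match to the sterol regulatory element core and one without. Each is written 5′ to 3′ in the direction of the gene and ends before the first base transcribed in RefSeq or in GENCODE M21, whichever comes first. Capitals mark the sterol regulatory element core (TCACNCCAC) and CCAAT boxes in Hmgcs1, and the E-box (CACGTG) and a CCAAT box in Insig1. They also mark a GC box (GGGCGG) and a CCAAT box in Srebf2, and a GC box in Cyp51. The marked CCAAT boxes read ATTGG, the reverse complement of CCAAT.
Srebf2, chr15:82147019-82147180, plus strand: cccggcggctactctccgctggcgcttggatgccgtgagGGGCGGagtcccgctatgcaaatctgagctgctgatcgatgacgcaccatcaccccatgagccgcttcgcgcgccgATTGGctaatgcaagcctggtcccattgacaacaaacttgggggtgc
Cyp51, chr5:4104747-4104947, minus strand: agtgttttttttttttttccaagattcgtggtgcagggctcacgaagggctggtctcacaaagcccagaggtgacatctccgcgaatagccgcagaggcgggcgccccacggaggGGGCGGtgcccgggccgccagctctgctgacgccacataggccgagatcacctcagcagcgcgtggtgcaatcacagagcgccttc
Hmgcs1, chr13:119690101-119690350, plus strand: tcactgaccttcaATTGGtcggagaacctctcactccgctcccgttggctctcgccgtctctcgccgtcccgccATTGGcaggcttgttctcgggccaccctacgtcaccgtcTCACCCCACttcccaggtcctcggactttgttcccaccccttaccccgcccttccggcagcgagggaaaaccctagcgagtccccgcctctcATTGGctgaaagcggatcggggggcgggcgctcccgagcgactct
Insig1, chr5:28071162-28071362, plus strand: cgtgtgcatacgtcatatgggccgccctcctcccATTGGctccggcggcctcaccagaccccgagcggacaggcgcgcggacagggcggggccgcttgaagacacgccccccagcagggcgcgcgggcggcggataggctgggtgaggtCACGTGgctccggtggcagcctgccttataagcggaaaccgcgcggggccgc

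The sterol regulatory element core was found in 1 of the 6 promoters, that of Hmgcs1 (TCACCCCAC, starting 137 bases before the start), against 1.05% of all 32851 promoters in the table. Its longer consensus form, which contains the core, was in 0 of the 6 and in 0.0731% of all promoters. The E-box was in 1 of 6, that of Insig1, against 6.02% of all. A CCAAT box was present in 6 of 6 (33.8% of all promoters) and a GC box in 6 of 6 (32.7% of all). These counts cover all 250 bases, while the sequences shown for Srebf2, Cyp51 and Insig1 stop short of the RefSeq start. The CCAAT box of Cyp51, 29 bases before that start, is therefore not in the sequence shown. Both strands were searched, and a match is a run of letters and not a shown binding site. Only exact matches were counted, so a missing match does not show that a promoter lacks a site. TCACCCCAT, in the sequence shown for Srebf2, differs from the sterol regulatory element core in its last base and was not counted.

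Recovered read totals were 17287488 to 21981876 per library, and the 8 genes held 152 to 3655 reads per library. Nanoparticle library 1 stood apart from the others of its group: across the 10682 tested genes, which are not replicates, the correlation of log2(FPKM + 1) was 0.990 between nanoparticle libraries 2 and 3, and 0.942 and 0.928 between library 1 and these. Counts by list and the values of the 8 genes are therefore given with and without it. Every gene of the 8 and of the 4 other pathway lists that was called with 6 libraries was also called, in the same direction, without it. Dendritic cell markers (10 genes) summed to 515 to 520 FPKM in vehicle and 413 to 576 FPKM in nanoparticle libraries. Most of that sum in vehicle was Itgax, at 442 to 456 FPKM there and 248 to 398 FPKM with nanoparticles, and Flt3 was at no more than 0.0793 FPKM. Of 8 tested dendritic cell markers 1 rose and 4 fell (limma), against 17% and 16.2% of all tested genes. Without nanoparticle library 1, 2 of them rose and 5 fell, against 34.3% and 30.5% of all tested genes. Ccr7 rose 48.9-fold, Clec10a and Clec9a fell 8.81-fold and 2.14-fold, Zbtb46 fell 1.72-fold, and Cd209a fell from 5.69 to 0.0254 FPKM by mean. Xcr1, which did not pass the filter, was at 0.0902 to 0.181 FPKM in vehicle and higher, at 0.711 to 2.21 FPKM, with nanoparticles. Macrophage markers (10 genes, 0 of them at 0) summed to 1130 to 1284 FPKM in vehicle and 1011 to 1231 FPKM with nanoparticles. Of these 10 genes 3 rose and 5 fell, against the same 17% and 16.2% of all tested genes. Without nanoparticle library 1, 4 rose and 6 fell, against the same 34.3% and 30.5%. Neutrophil markers (9 genes) summed to 35.1 to 39.8 FPKM in vehicle and 50.8 to 124.5 FPKM in nanoparticle libraries, with Ly6g, Mpo and Elane at no more than 0.307 FPKM in any library. S100a8 rose 2.38-fold, S100a9 was at 0.962 to 1.65 FPKM in vehicle and at 0.352, 13.2 and 10.2 FPKM in nanoparticle libraries 1 to 3, and Ngp and Camp reached 4.30 and 1.99 FPKM in the latter group. Cxcr2, of the same list, went the other way, from 0.395 to 0.801 FPKM in vehicle to at most 0.139 FPKM with nanoparticles. Ltf had means of 0.162 FPKM in vehicle and 0.175 FPKM with nanoparticles. Neither Cxcr2 nor Ltf passed the filter. Mast cell, lymphocyte and stroma markers summed to at most 2.56, 0.374 and 2.41 FPKM. The part of cell makeup in the results below was not tested, and in bulk RNA fewer cells of a type and less RNA per cell cannot be told apart.

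The sterol regulator Srebf2 and the enzyme genes Sqle and Lss fell 1.84-fold, 1.90-fold and 1.52-fold with nanoparticles, whereas Insig1 had means of 14.8 and 14.9 FPKM. Of the 8 genes, 7 had a log2 change of -0.36 or below, Insig1 had one of -0.00, and 3 fell past a Benjamini-Hochberg adjusted p of 0.05 in limma's moderated test. Of all 10682 tested genes 16.2% were called lower, 17% higher and 33.2% in either direction, and 50.1% had a log2 change below 0. Of the 8 genes 0 were called higher by limma, at the adjusted threshold, at an unadjusted p of 0.05 (where 5 were lower) or by limma-voom. The nanoparticle values of 5 of the 8 lay entirely under the vehicle values and those of 0 entirely above, against 26.2% and 25.9% of all tested genes. The median log2 change of the 8 was -0.53, against 0.00 over all tested genes. In 7 of the 8 genes the lowest value of all belonged to nanoparticle library 1, as it did in 32.5% of tested genes. Without that library 5 of the 8 were called lower, Idi1 and Cyp51 in addition, and the median was -0.38 (30.5% of all tested genes were then lower, 34.3% higher and 64.8% either, with a median of 0.02). Leaving out vehicle library 1, 2 or 3 left 1 gene of the 8, Sqle, past the threshold. Of all 10682 tested genes 1074, 1057 and 1027 were then called lower, in place of 1733, so calls were lost among all genes too.

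**Figure D1:**
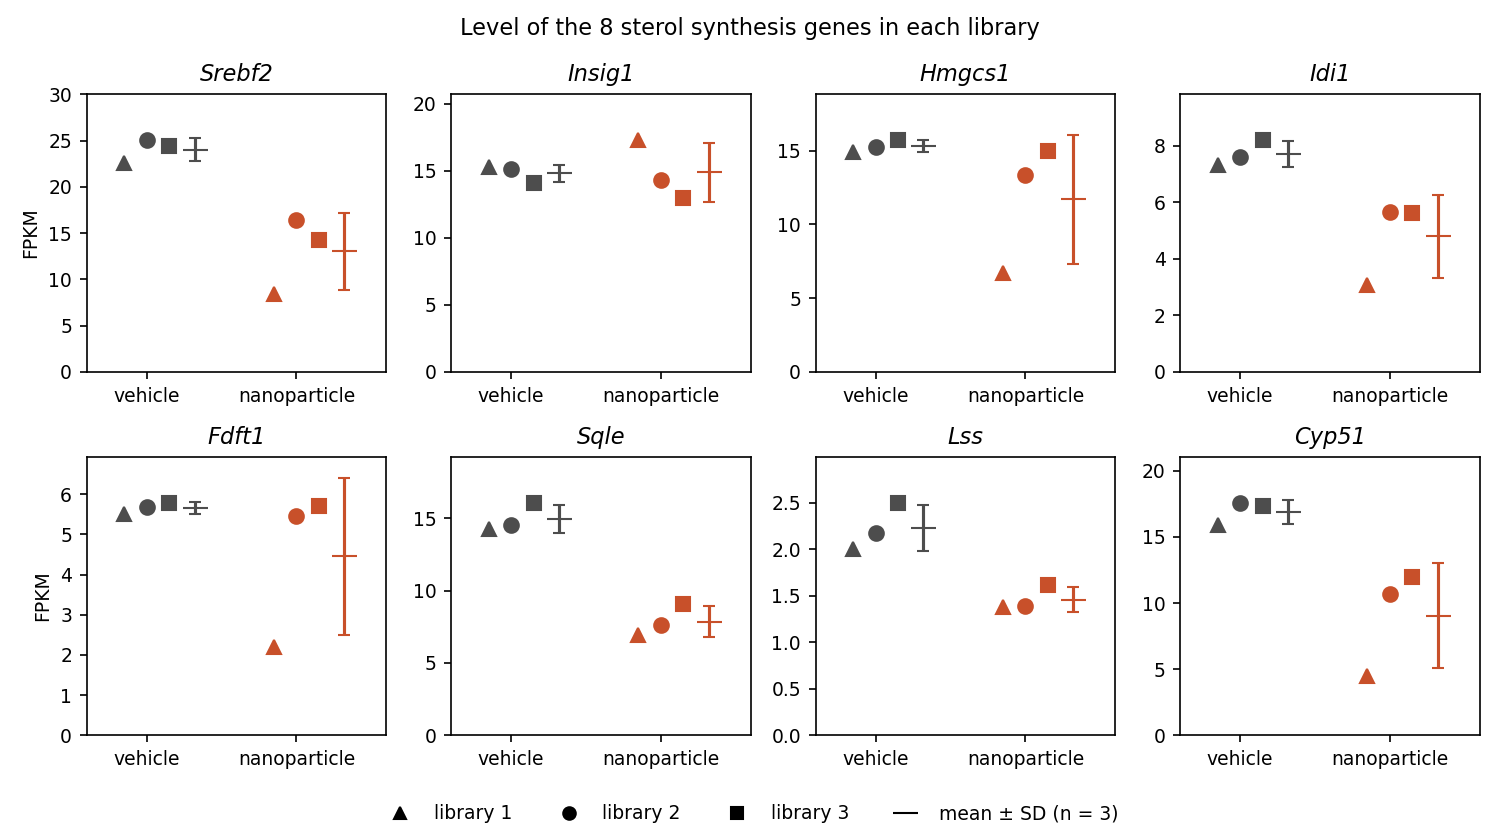
Level in FPKM (vertical axes, each from 0) of the 8 genes in the 3 vehicle libraries (grey) and 3 nanoparticle libraries (orange), with the mean and SD beside each group. In Srebf2, Idi1, Sqle, Lss and Cyp51 the nanoparticle libraries lay under every vehicle library, in Hmgcs1 and Fdft1 library 1 alone was far down, and in Insig1 library 1 was the highest of all.

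Srebf2 (ENSMUSG00000022463; GRCm38 chromosome 15, 82147181 to 82205379, plus strand), which encodes the master activator of the route, was the most abundant of the 8 genes in vehicle. It stood at 22.6, 25.1 and 24.4 FPKM in vehicle libraries 1 to 3 and at 8.38, 16.4 and 14.3 FPKM in nanoparticle libraries 1 to 3. The groups did not overlap, and the lowest value was in nanoparticle library 1. Srebf2 fell from 24.0 ± 1.27 to 13.02 ± 4.16 FPKM (SD, n = 3 each), 1.84-fold, or by 0.88 on the log2 scale with an SE of 0.234 (adjusted p = 0.0300, limma). With nanoparticle library 1 left out it fell by 0.62 (adjusted p = 7.1e-04). With any 1 vehicle library left out the log2 changes were -0.92 to -0.85 and the threshold was missed (limma adjusted p = 0.0827 to 0.1030).

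Insig1 (ENSMUSG00000045294; chromosome 5, 28071363 to 28078662, plus strand) encodes the membrane protein that retains Scap with SREBP2, and it is itself a classical SREBP target. Its levels were 15.3, 15.1 and 14.1 FPKM in vehicle and 17.3, 14.3 and 13.0 FPKM in nanoparticle libraries, with 1 nanoparticle library above and another below every vehicle library. The means of 14.8 ± 0.650 and 14.9 ± 2.20 FPKM (SD, n = 3 each) gave a log2 change of -0.00 (95% interval -0.31 to 0.30, limma adjusted p = 0.9863). The interval covers changes of that size in either direction, so the test does not show equal levels. While 5th in vehicle, Insig1 was the most abundant of the 8 in nanoparticle libraries by mean. Its mean differed from that of Srebf2 in that group by less than the spread between libraries.

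Of the early enzymes, Hmgcs1 (ENSMUSG00000093930; chromosome 13, 119690379 to 119708260, plus strand) makes HMG-CoA, the precursor of mevalonate. It was at 14.9, 15.3 and 15.7 FPKM in vehicle and at 6.73, 13.4 and 14.99 FPKM with nanoparticles. Library 1 was at 44.0% of the vehicle mean and libraries 2 and 3 at 87.3% and 97.9%, so the groups overlapped. The log2 change of -0.43 (95% interval -1.09 to 0.23) did not pass (limma adjusted p = 0.2781), nor did that of -0.11 without library 1 (interval -0.27 to 0.06, adjusted p = 0.2151).

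Idi1 (ENSMUSG00000058258; chromosome 13, 8885501 to 8892451, plus strand) encodes the isomerase that interconverts the activated isoprene units. It was at 7.33, 7.61 and 8.21 FPKM in vehicle and at 3.09, 5.67 and 5.63 FPKM with nanoparticles. All 3 nanoparticle libraries lay below vehicle, libraries 2 and 3 close together at 73.5% and 72.9% of the vehicle mean and library 1 at 40.1%. The log2 change of -0.62 (95% interval -1.12 to -0.13) had a limma adjusted p = 0.0606, just over the threshold. Without library 1, where the spread was smaller, Idi1 fell by 0.39 on the log2 scale (adjusted p = 0.0033).

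Fdft1 (ENSMUSG00000021273; chromosome 14, 63145150 to 63179578, minus strand) encodes squalene synthase, the first step committed to sterols. It was at 5.50, 5.69 and 5.78 FPKM in vehicle and at 2.20, 5.46 and 5.71 FPKM with nanoparticles. Libraries 2 and 3 were at 96.5% and 101% of the vehicle mean and library 1 at 38.9%. The log2 change of -0.36 (95% interval -1.06 to 0.33, limma adjusted p = 0.3821) became -0.02 without library 1 (interval -0.18 to 0.14, adjusted p = 0.8483). Its exons share 774 bases with Ctsb on the opposite strand, a gene at 986 to 1585 FPKM in these libraries, and whether counting used strand is not stated, so the level of Fdft1 is uncertain.

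Sqle (ENSMUSG00000022351; chromosome 15, 59315077 to 59331192, plus strand) encodes squalene epoxidase, a rate-controlling oxygen-dependent step, and had the smallest adjusted p of the 8. It was at 14.3, 14.6 and 16.0 FPKM in vehicle and at 6.90, 7.64 and 9.06 FPKM with nanoparticles. The groups lay far apart, and library 1, at 46.2% of the vehicle mean, was close to libraries 2 and 3 at 51.1% and 60.6%. Sqle fell from 14.95 ± 0.957 to 7.87 ± 1.10 FPKM (SD, n = 3 each), 1.90-fold, or by 0.85 on the log2 scale (limma adjusted p = 0.0030, SE 0.122), and by 0.77 when library 1 was left out (adjusted p = 4.3e-04). It was called lower in each of the 15 other settings.

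Lss (ENSMUSG00000033105; chromosome 10, 76531588 to 76557138, plus strand) encodes lanosterol synthase, which closes the sterol rings, and was the least abundant of the 8. It was at 2.01, 2.17 and 2.495 FPKM in vehicle and at 1.37, 1.39 and 1.62 FPKM with nanoparticles. The groups did not overlap and library 1 was close to library 2. Lss fell from 2.23 ± 0.249 to 1.46 ± 0.136 FPKM (SD, n = 3 each), 1.52-fold, or by 0.39 on the log2 scale (limma adjusted p = 0.0314, SE 0.105), a scale on which 1 is added to values this low, and by 0.36 when library 1 was left out (adjusted p = 0.0192). The call was lost without any 1 vehicle library or without nanoparticle library 2 (adjusted p = 0.0688 to 0.1334).

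Cyp51 (ENSMUSG00000001467; chromosome 5, 4081145 to 4104746, minus strand) encodes the P450 that demethylates lanosterol. It was at 15.9, 17.5 and 17.3 FPKM in vehicle and at 4.51, 10.6 and 12.0 FPKM with nanoparticles. All nanoparticle libraries were under vehicle, with library 1 at 26.7% of the vehicle mean, the lowest share of any of the 8 genes, and libraries 2 and 3 at 63.0% and 70.7%. The log2 change of -0.93 (95% interval -1.71 to -0.15) was the largest of the 8 and did not pass (limma adjusted p = 0.0694), and without library 1 Cyp51 fell by 0.54 (adjusted p = 0.0010). It was also called without nanoparticle library 3, at a log2 change of -1.16 (adjusted p = 0.0460). Its exons share 166 bases with Akap9 on the opposite strand, a gene at 0.831 to 2.24 FPKM.

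By level, the 8 genes ran from Srebf2 down through Cyp51, Hmgcs1, Sqle, Insig1, Idi1 and Fdft1 to Lss in vehicle. The libraries of Hmgcs1, Sqle and Insig1 overlapped there, and every other pair of neighbours in that order was apart. In nanoparticle libraries the order of the means was Insig1, Srebf2, Hmgcs1, Cyp51, Sqle, Idi1, Fdft1 and Lss. Neighbours among the first 5 overlapped, as did Idi1 and Fdft1, whereas Sqle lay above Idi1 and Lss below Fdft1 in every library.

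**Figure D2:**
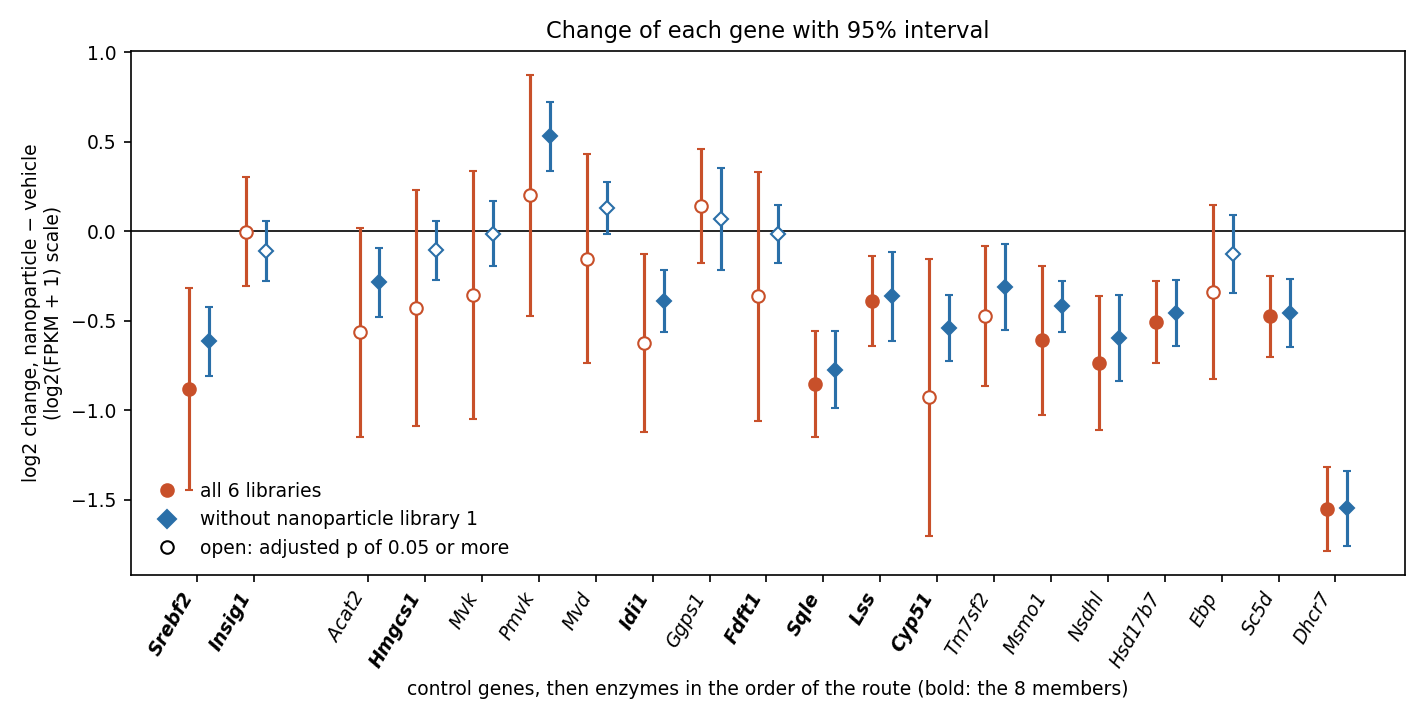
Log2 change between nanoparticle and vehicle libraries on the log2(FPKM + 1) scale (vertical axis) with its 95% interval for Srebf2, Insig1 and 18 enzymes in route order, from all 6 libraries (orange) and without nanoparticle library 1 (blue), filled where the adjusted p was under 0.05. The changes of the early enzymes up to Fdft1 lay between -0.62 and 0.20 and all missed the threshold with 6 libraries, and the largest fall shown was that of Dhcr7 at -1.55.

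The rest of the route was read from a list of 14 genes, 13 enzymes and the sterol carrier Stard4. Of the 13 that passed the filter, 6 fell, 0 rose and 7 did not pass (limma, adjusted over all genes; 0 were higher at an unadjusted p of 0.05 or by limma-voom), with a median log2 change of -0.48 and groups apart with nanoparticles lower in 8. The shares over all tested genes were 16.2% called lower and 26.2% apart with nanoparticles lower. Without nanoparticle library 1, 8 were called lower and 1 higher, with a median of -0.31, where 30.5% and 34.3% of all tested genes were called. Leaving out vehicle library 2 or 3 left 3 called lower, where 1057 and 1027 of all 10682 tested genes were called lower. Fdps, farnesyl diphosphate synthase, did not pass the filter, with 0.192 to 0.455 FPKM in vehicle and 0.0718 to 0.0987 FPKM in nanoparticle libraries. Its level is uncertain, since near-identical processed copies of this gene are known in the mouse genome.

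The largest falls among these 13 genes were those of Dhcr7 and Stard4. Dhcr7, which makes cholesterol from 7-dehydrocholesterol, was at 7.41, 6.90 and 6.46 FPKM in vehicle and at 1.68, 1.84 and 1.58 FPKM with nanoparticles, 4.07-fold lower by mean. On the log2(FPKM + 1) scale the change was -1.55 (SE 0.0968, limma adjusted p = 1.6e-04), and by limma-voom on recovered reads it was -2.03. In Dhcr7 the 3 nanoparticle libraries, library 1 included, were nearly equal. Stard4 fell from 8.13 ± 0.913 to 2.73 ± 0.512 FPKM (SD, n = 3 each, adjusted p = 0.0010).

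Among the other enzymes that act on the ring system, Nsdhl, Hsd17b7, Sc5d and Msmo1 fell, with log2 changes of -0.74, -0.50, -0.48 and -0.61 (limma adjusted p = 0.0127, 0.0083, 0.0097 and 0.0372). The call of Msmo1, the C4-methyl oxidase, was lost without any 1 vehicle library and without nanoparticle library 2, that of Nsdhl without any 1 vehicle library, and that of Sc5d without vehicle library 2 or 3. Tm7sf2 and Ebp, a sterol reductase and a sterol isomerase, did not pass at -0.47 and -0.34 (adjusted p = 0.0674 and 0.2448). Tm7sf2 was called lower without nanoparticle library 1 (-0.31, adjusted p = 0.0305).

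Acat2, Mvk, Pmvk, Mvd and Ggps1, which act before squalene or on its isoprenoid branch, did not pass with 6 libraries, at log2 changes of -0.56, -0.36, 0.20, -0.15 and 0.14 (limma adjusted p = 0.1216 to 0.6712), and those of Pmvk and Ggps1 turned negative with values scaled to TPM. Mevalonate kinase, Mvk, was at 5.85, 5.62 and 5.17 FPKM in vehicle and at 2.18, 5.35 and 5.61 FPKM with nanoparticles, so that library 1 alone lay outside the vehicle range. Phosphomevalonate kinase, Pmvk, was at 7.12, 7.66 and 6.57 FPKM in vehicle and at 4.90, 11.1 and 10.4 FPKM with nanoparticles, with library 1 below vehicle and libraries 2 and 3 above it. Without library 1 Pmvk rose by a log2 change of 0.53 (adjusted p = 0.0014) and Acat2 fell by 0.29 (adjusted p = 0.0198).

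Divided at the squalene epoxide, a division made after the values were seen and thus not tested, the route had 9 tested genes on each side. The early 9 include Ggps1, which acts on the isoprenoid branch and is not a step to squalene, with a log2 change of 0.14. Called lower were 1 of the early 9 (Sqle) and 6 of the later 9, against 16.2% of all tested genes. The median log2 changes were -0.36 and -0.50, and without nanoparticle library 1 they were -0.02 and -0.46, with 3 of 9 and 8 of 9 called lower, against 30.5% of all tested genes. By library, the median difference from the vehicle mean (log2 scale) of the early steps was -1.04, -0.07 and 0.01 in nanoparticle libraries 1 to 3, and that of the later steps was -0.79, -0.45 and -0.42. In library 1 both stretches were low, and in libraries 2 and 3 the later one was. Over all tested genes the same medians were -0.03, 0.02 and 0.02.

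**Figure D3:**
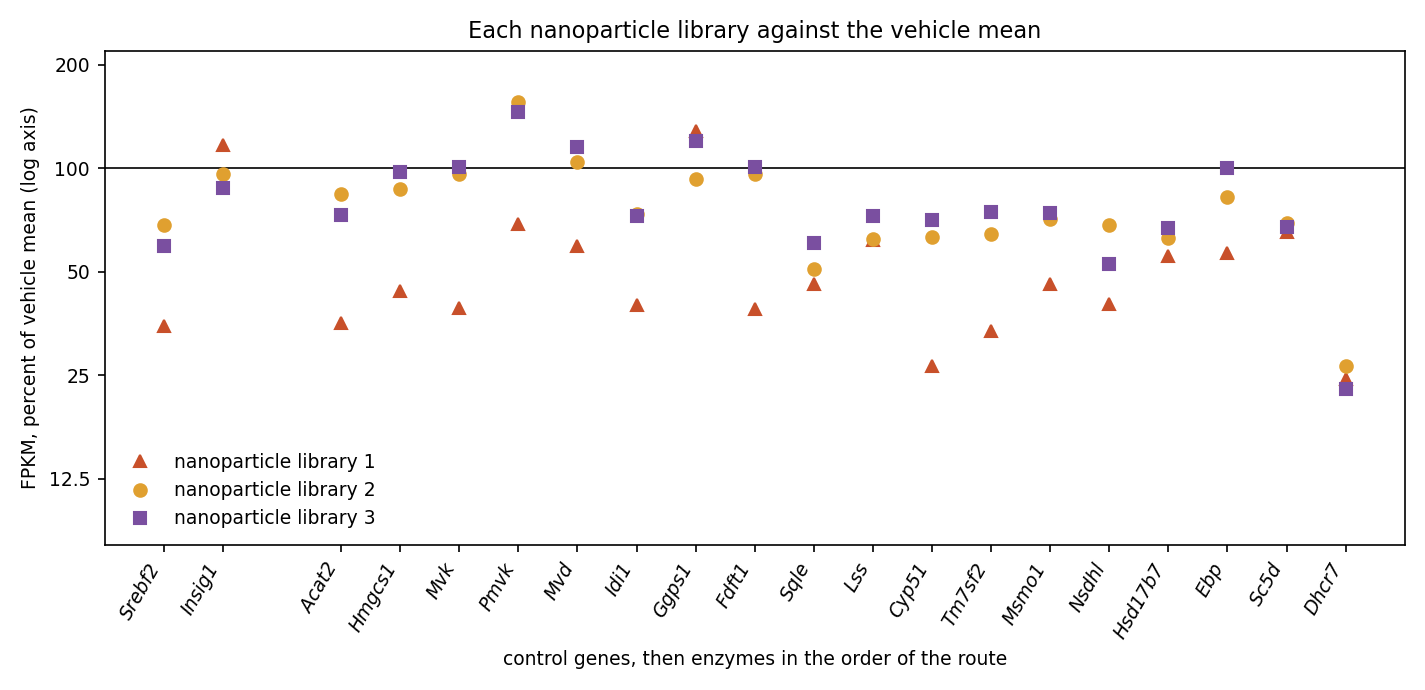
Level in each nanoparticle library as a percent of the vehicle mean (vertical axis, log scale) for Srebf2, Insig1 and the 18 tested enzymes in route order. Library 1 (triangles) lay under libraries 2 and 3 for most enzymes, among them Fdft1 at 38.9% against 96.5% and 101%, while the 3 libraries came together in Lss, Sc5d and Dhcr7.

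The SREBP control list held genes for the control of SREBP release and also Gpam, which is not one of these. Of its 10 tested genes, 2 rose, 2 fell (Gpam among them) and 6 did not pass, with a median log2 change of -0.17. These shares of calls are near those of all tested genes, of which 17% rose and 16.2% fell, and are no result about the list. The groups were apart in all 10 genes, with nanoparticles lower in 7 and higher in 3, against 26.2% and 25.9% of all tested genes. Without nanoparticle library 1, 3 were called higher and 4 lower (34.3% and 30.5% of all tested genes). Insig2, the second Insig gene, was at 8.12, 7.54 and 7.85 FPKM in vehicle and at 14.8, 10.2 and 10.5 FPKM with nanoparticles. The groups did not overlap and library 1 was the highest; Insig2 rose by 0.52 on the log2 scale (limma adjusted p = 0.0411, SE 0.153). Rnf139, a ubiquitin ligase of the endoplasmic reticulum, rose by 0.40 (adjusted p = 0.0402). Mbtps1, the site-1 protease that makes the first cut in SREBP, fell by 0.36 (adjusted p = 0.0488), and Gpam, a glycerolipid synthesis gene, fell by 0.57 (adjusted p = 0.0246). All 4 calls were lost without any 1 vehicle library. Scaled to TPM, to read totals or by the upper quartile, 6 or 7 of the 10 were called lower and 0 higher. Under these scalings, in that order, 4241, 3594 and 2720 of the 10682 tested genes were called lower, in place of 1733. Those called higher numbered 884, 1109 and 1318, in place of 1817. Calls thus moved towards lower among all genes too, and whether the control list moved further was not tested.

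Srebf1, Scap, Mbtps2, Erlin1, Erlin2 and Rnf145 did not pass, at log2 changes of -0.19, -0.22, -0.15, 0.25, -0.15 and -0.19 (limma adjusted p = 0.0885 to 0.3432). Srebf1, which encodes SREBP1, was at 11.8, 11.6 and 11.3 FPKM in vehicle and at 9.73, 10.2 and 10.0 FPKM with nanoparticles. Its groups did not overlap, with a small difference.

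Of the lipogenic genes, known as targets of SREBP1, 11 were tested: 9 fell, 1 rose and 1 did not pass, with a median log2 change of -0.94, against 16.2% of all tested genes lower and 17% higher. Without nanoparticle library 1 the counts were 9 lower and 2 higher, against 30.5% and 34.3%. Fasn, fatty acid synthase, fell from 16.8 ± 0.403 to 3.34 ± 0.568 FPKM (SD, n = 3 each), 5.03-fold (limma adjusted p = 1.4e-04). The desaturase Fads2 fell from 8.83 ± 0.276 to 1.02 ± 0.640 FPKM. Fads1 and Elovl5 fell with log2 changes of -1.23 and -1.30, or 2.48-fold and 2.59-fold by mean. Elovl6 had a log2 change of -0.94, the value that set the list median. Adding 1 made that change small, since the mean of Elovl6 fell 6.26-fold, from 1.33 to 0.212 FPKM. By limma-voom on recovered reads its log2 change was -2.77. Scd2, named here after its value was seen, had a log2 change of -2.36, or -1.91 without nanoparticle library 1, and Fads2 had -2.33 and -2.10. Me1, the cytosolic malic enzyme, was the gene that rose (log2 change 0.98, adjusted p = 0.0012), and Acss2 (named after its value was seen) did not pass at 0.10 (adjusted p = 0.8106). Whether this list differs from the sterol genes was not tested.

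Of 14 tested sterol handling genes, 5 rose, 4 fell and 5 did not pass, with a median log2 change of 0.02, while 17% of all tested genes rose and 16.2% fell. Without nanoparticle library 1, 6 were higher and 7 lower with a median of -0.18, against 34.3% and 30.5% of all tested genes. Without any 1 vehicle library 2 were called in each direction. Of all 10682 tested genes 1114 to 1152 were then called higher and 1027 to 1074 lower. Ch25h was at 4.24, 7.21 and 5.43 FPKM in vehicle and at 45.1, 43.3 and 51.5 FPKM with nanoparticles, 8.29-fold higher (log2 change 2.87, SE 0.181, limma adjusted p = 1.6e-04). The 3 nanoparticle libraries were close together, library 1 included. Npc2, the lysosomal cholesterol carrier, rose 3.11-fold, and the oxysterol receptor gene Nr1h2 rose with a log2 change of 0.44, which was -0.0065 with values scaled to TPM. Abcg1, a sterol exporter, fell from 77.2 ± 3.42 to 42.5 ± 3.65 FPKM (SD, n = 3 each, adjusted p = 0.0021). Nceh1, a cholesteryl ester hydrolase, fell 2.97-fold and the sterol hydroxylase Cyp27a1 fell 3.59-fold (adjusted p = 2.1e-04 and 0.0167). The other calls, named after their values were seen, were Abca1 and Nr1h3, higher, and Lipa, lower (adjusted p = 0.0470, 0.0493 and 0.0403), and the log2 change of Abca1 was 0.95, or 0.62 without nanoparticle library 1. The calls of Abca1, Nr1h3, Lipa, Nr1h2 and Cyp27a1 were lost without any 1 vehicle library.

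**Figure D4:**
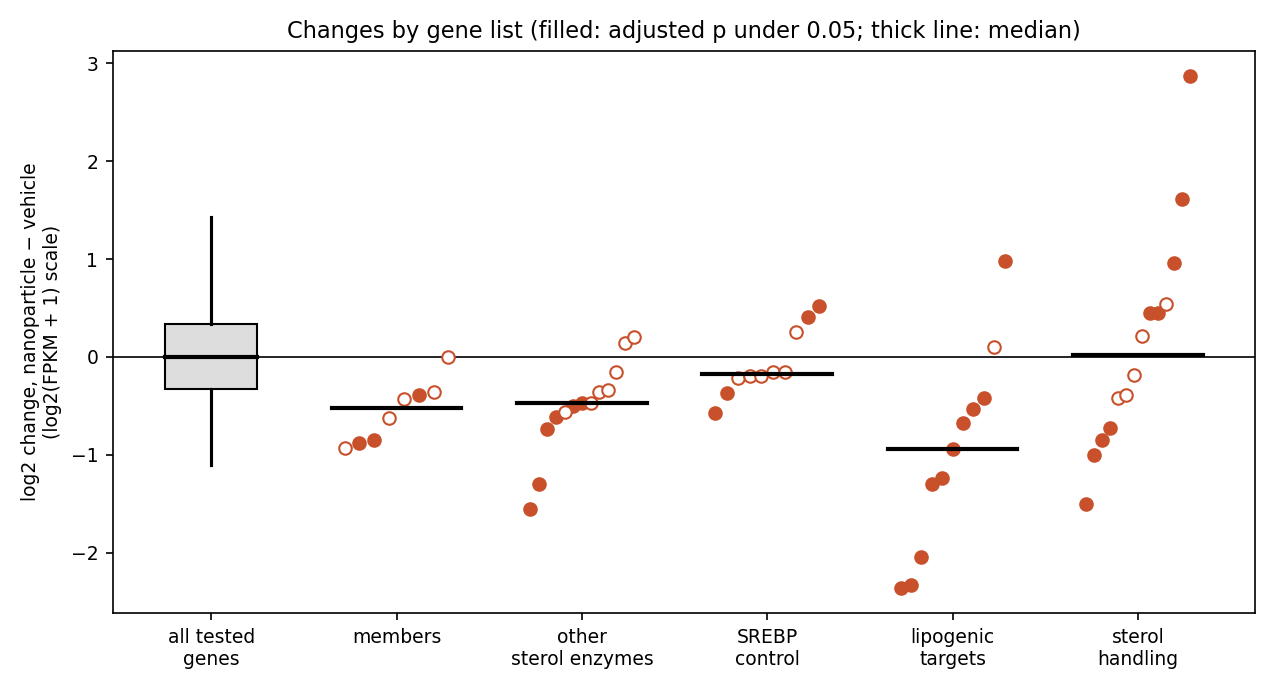
Log2 change (vertical axis, log2(FPKM + 1) scale) of each tested gene by list, filled where the adjusted p was under 0.05, with list medians as thick lines; the box shows the middle 50% of all 10682 tested genes and its whiskers run from the 5th to the 95th percentile. The 8 members had a median of -0.53, the other sterol genes -0.48, the control genes -0.17, the lipogenic genes -0.94 and the handling genes 0.02.

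The genes whose 6 library values were most like the median of the 8 were sought among 5980 genes with at least 5 FPKM in vehicle, by the distance between log2 differences from the vehicle mean. The closest was Msmo1, of the same route, at a distance of 0.142, followed by Rgl2, Csk, Hmgb1, Larp7 and Ccnd3 at 0.148 to 0.166. Of the 8 genes themselves Idi1 was nearest to their median, at 0.0759, and Insig1 farthest, at 1.35. The median profile they were matched to was -1.07, -0.41 and -0.35 in nanoparticle libraries 1 to 3 (log2 scale), so a low value in library 1 was part of the choice.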

How the data were processed

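Libraries labelled as bone marrow derived dendritic cells were compared in 2 groups of 3. The authors deposited 2 tables of 23398 genes whose 140388 values are identical, one named for read counts. They were read as FPKM deposited by the authors (fragments per kilobase of transcript, relative to library size), a unit inferred from the values: 95.8% to 96.1% of the values above 0 became whole reads (within 0.01) when multiplied by GENCODE M21 exon length and 1 scale per library. These scales followed median-of-ratios size factors within 0.109%, not read totals. Tools named without a role, per the submitters' processing notes, are CASAVA, STAR 2.5, HTSeq, edgeR 3.16.5 and DESeq2, with builds mm10 and hg19.

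The 10682 genes that reached 1 FPKM in 3 or more libraries were fitted with limma 3.58.1 in R 4.3.3 on log2(FPKM + 1), group as the single term, with a mean-variance trend, and adjusted by Benjamini and Hochberg over all of them. FPKM do not allow the count test that had been planned as an alternative, so edgeR was not run and limma-voom on recovered reads took its place, chosen after seeing the data. The fit was also run on simulated data with the same spread in both groups and no outlying library. That run therefore does not show how the fit performs with a library like nanoparticle library 1. The 8 genes, the lists and the rule for named genes (the 8, all tested genes of the sterol and control lists, the 6 smallest adjusted p of the other 2 lists, and the 6 nearest patterns) were chosen with earlier results of these data known. Some genes of the route and of its control, among them genes of the fixed lists, are not reported here, and the list counts leave them out. Python 3.11.15, pandas 2.3.3 and matplotlib 3.10.9 were used for tables and figures.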

Additional observations from a re-analysis of the deposited data

How the results depend on the processing

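The log2 changes are relative to the deposited scaling, which sets the median of all tested genes at 0.00. That median was -0.44 with values scaled to TPM, -0.28 with recovered read totals and -0.17 with the upper quartile, and relative to it Insig1 stayed within 0.05 of 0 and the other 7 genes stayed lower. Under these 3 scalings in that order, genes called lower numbered 4241, 3594 and 2720 in place of 1733, genes called higher 884, 1109 and 1318 in place of 1817, and 7, 5 and 5 of the 8 genes were called in place of 3. Cyp51 was then called at -1.44, -1.24 and -1.13 and Idi1 at -1.13, -0.92 and -0.81, and with TPM also Hmgcs1 (-0.91) and Fdft1 (-0.86). Other sterol genes called lower with TPM numbered 11. Control genes called lower numbered 7, 7 and 6 with 0 higher, and handling genes called higher 2 in each. Directions turned under TPM and read totals for Pmvk (-0.24, -0.10) and Erlin1 (-0.16, -0.036), under all 3 for Ggps1 (-0.26, -0.13, -0.023) and Acss2 (-0.32, -0.16, -0.065), and under TPM for Nr1h2 (-0.0065). With no filter on low values 1 of the 8 was called, Srebf2 (-0.88, adjusted p = 0.0665) and Lss (-0.39, adjusted p = 0.0986) being lost, with 0 and 0 control genes called and 3 handling genes higher. A filter at 5 FPKM left 975 genes called lower, 1 control gene in each direction, and no value for Lss. Without the mean-variance trend 1 control gene was lower. The cause of these differences was not tested. With the replicate block Lss was lost (-0.39, adjusted p = 0.0739) as were all control genes (0 lower, 0 higher), Msmo1 (adjusted p = 0.0612), Nr1h2 (0.0688), Nr1h3 (0.1021) and Lipa (0.0923), 7 lipogenic genes were lower in place of 9, and 2785 genes were called in place of 3550. The numbers in the titles are not stated to mark a shared batch, and the deviations of same-numbered libraries correlated across genes at 0.0653, 0.113 and -0.0577, against -0.129 to 0.108 for libraries with different numbers.

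Leaving out each library in turn gave 2141 to 6923 genes past the threshold (1027 to 3263 lower, 1114 to 3660 higher) and 1 to 5 of the 8 genes. The highest of these counts came without nanoparticle library 1, and leaving out vehicle library 1, 2 or 3 gave 2226, 2188 and 2141 genes. With 1 library left out, an arm of 2 is fitted with the spread of both groups. Called lower were 3 to 8 other sterol genes, 7 to 9 lipogenic, 0 to 4 control and 2 to 7 handling genes, and called higher were 0 to 3 control and 2 to 6 handling genes. Log2 changes ran from -1.06 to -0.62 for Srebf2, -0.11 to 0.083 for Insig1, -0.63 to -0.11 for Hmgcs1, -0.74 to -0.39 for Idi1, -0.55 to -0.02 for Fdft1, -0.95 to -0.77 for Sqle, -0.44 to -0.33 for Lss and -1.16 to -0.54 for Cyp51, and from -0.33 to 0.13 for Mvd and -0.090 to 0.40 for Acss2, the genes besides Insig1 whose direction turned. Over the 45 other named genes, 512 of 662 values under alternatives kept their direction and side of the threshold, 90 lost a call, 46 gained one and 14 changed direction. The planned edgeR count test was not run, and limma-voom on recovered reads, chosen after seeing the data, called 3584 genes and 3 of the 8.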

Other observations

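Ratios of FPKM within a library, chosen after the values were seen and given without a test, set related genes side by side. Insig2 per Insig1 was 0.499 to 0.558 in vehicle and 0.713 to 0.857 in nanoparticle libraries, and Srebf1 per Srebf2 was 0.461 to 0.521 in vehicle and 1.16, 0.622 and 0.701 in nanoparticle libraries 1 to 3. Sqle per Fdft1, which are consecutive steps, was 2.56 to 2.78 in vehicle and 3.13, 1.40 and 1.59 with nanoparticles, so library 1 lay above vehicle and libraries 2 and 3 below it.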
